A study of Mus musculus with 16 samples.

Results

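The genes described here are 9 genes of oligodendrocyte myelin (Mbp, Mog, Mag, Mobp, Cnp, Mal, Ermn, Cldn11 and Myrf) of the 24982 genes in the count table, all of which had counts. They were selected on their values in these tumors, for standing apart in the tumor of mouse 29048 from the other tumors within the brain, and for the comparison with peripheral myelin genes in tumors outside the brain parenchyma. The levels of 29048 against the other intra-CNS tumors, and of peripheral against central myelin genes outside the brain, are therefore given as descriptions without a test. Expression was measured by RNA-seq of polyadenylated RNA in 16 rhabdoid tumors, 1 per mouse, from Smarcb1flox/flox;R26-CreERT2 mice on a mixed 129/SV and C57BL/6 background. In all groups tamoxifen given during pregnancy switched on a Cre recombinase expressed in every tissue, which deletes the floxed Smarcb1, so that the recombined cell type is not set by the model. The labels place 5 tumors within the brain (intra-CNS), 6 in the head but not in the brain tissue itself (intracranial extra-CNS) and 5 beyond the skull (extracranial). The intra-CNS tumors were taken at 30 to 180 days of age, the intracranial extra-CNS tumors at 52 to 170 days and the extracranial tumors at 80 to 210 days. All 5 intra-CNS tumors were induced at E6, against 1 of 6 intracranial extra-CNS and 1 of 5 extracranial tumors, the others having been induced at E7 or E8, so that location and day of induction are largely confounded. Tumors in frozen brains were dissected from sections after a quick stain, and the share of tumor cells was judged by eye before extraction, with no estimate for single tumors used here.

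Myelin is the stack of membrane that oligodendrocytes wrap around axons in the central nervous system and Schwann cells wrap around axons in peripheral nerves. Both kinds compact the membrane with myelin basic protein (Mbp). Mog, Mobp and Opalin are products of oligodendrocytes, whereas Mbp, Mag, Cnp and Mal are used by Schwann cells as well. Myrf is the membrane-bound transcription factor that switches on the myelin genes as an oligodendrocyte matures, together with Sox10. Cnp, Mal and Cldn11 are also made by cells that form no myelin. GENCODE lists all 9 as protein-coding genes, on 8 chromosomes of GRCm38 (mm10). It places Mobp at chr9:120149707-120181484 (plus strand), Mog at chr17:37010743-37023398 (minus strand), Mag at chr7:30899176-30914873 (minus strand), Cnp at chr11:100574904-100591729 (plus strand) and Myrf at chr19:10208272-10240748 (minus strand).

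Promoter windows of 300 bases (250 before and 50 after the annotated start) were found in the RefSeq table of GRCm38.p6 for 7 of the 9 genes. These were 9 windows, since Mag has 3 annotated starts. The following 4 are shown because they hold words recognised by the regulators of this gene program. Capitals mark ACAAAG, a core word of the Sox family, and CTGGCAC or CTGGTAC, the words bound by Myrf, on either strand.

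Mobp chr9:120149492-120149791 (plus strand): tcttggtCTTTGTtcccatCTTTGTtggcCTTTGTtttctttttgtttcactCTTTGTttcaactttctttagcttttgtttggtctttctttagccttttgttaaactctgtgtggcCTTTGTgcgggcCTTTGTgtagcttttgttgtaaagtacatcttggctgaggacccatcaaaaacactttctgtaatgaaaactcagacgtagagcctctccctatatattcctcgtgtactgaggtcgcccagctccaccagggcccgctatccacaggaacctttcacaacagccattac

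Mog chr17:37023349-37023648 (minus strand): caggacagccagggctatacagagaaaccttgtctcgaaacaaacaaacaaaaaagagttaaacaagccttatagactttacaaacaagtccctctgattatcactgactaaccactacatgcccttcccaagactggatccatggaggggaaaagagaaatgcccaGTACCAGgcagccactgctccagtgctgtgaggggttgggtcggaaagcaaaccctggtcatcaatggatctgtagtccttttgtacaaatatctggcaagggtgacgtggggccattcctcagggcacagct

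Mag chr7:30914814-30915113 (minus strand): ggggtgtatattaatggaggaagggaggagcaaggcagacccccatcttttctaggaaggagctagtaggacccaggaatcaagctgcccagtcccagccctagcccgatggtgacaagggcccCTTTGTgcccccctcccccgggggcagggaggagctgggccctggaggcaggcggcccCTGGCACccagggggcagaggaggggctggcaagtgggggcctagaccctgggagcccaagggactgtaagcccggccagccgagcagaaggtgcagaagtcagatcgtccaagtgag

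Cnp chr11:100574689-100574988 (plus strand): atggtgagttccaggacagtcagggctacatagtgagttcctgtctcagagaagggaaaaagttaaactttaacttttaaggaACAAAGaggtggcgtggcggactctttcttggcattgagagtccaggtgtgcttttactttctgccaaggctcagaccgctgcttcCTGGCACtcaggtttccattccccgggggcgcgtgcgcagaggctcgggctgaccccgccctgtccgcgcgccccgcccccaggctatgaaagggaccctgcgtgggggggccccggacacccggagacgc

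The word ACAAAG was found in 4 of the 9 windows (2 of Mag, 1 of Mobp and 1 of Cnp) and in 18.7% of the 32851 promoter windows searched. The Mobp window held it 6 times, each on the strand opposite to the gene, between 243 and 120 bases before the start. The word CTGGCAC was found in 3 of the 9 windows (2 of Mag and 1 of Cnp) and in 5.01% of all windows, and CTGGTAC in 1 (Mog) and in 2.24% of all windows. Both Mag windows with matches overlap and hold the same ones, and the third Mag window held none. In the Mag window shown the Myrf word began 68 bases before the start, in Cnp 81 bases before it and in Mog 83 bases before it. No match overlapped another. These matches describe the letters of the windows only, and windows of Ermn, Mal and Cldn11 held none of these words.

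Total counts ranged from 17889968 to 110177889 per tumor. The level of Smarcb1, the gene deleted by the model, was 58.1 TPM (a transcript level scaled by gene length and library size) in 29048, against 3.98 to 9.91 TPM in the other 4 intra-CNS tumors and 6.48 to 43.7 TPM in the extra-CNS tumors, where R26P115 was highest. The tumor 29048 thus stood apart from its group in this check. For the selected genes, the main comparison of intra-CNS with extra-CNS tumors is therefore given with and without it. Fits of that comparison with other tools, or with tumors induced at E6 alone, contain it.

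The 9 central myelin genes were highest of all 16 tumors in 29048. Their summed level was 4786 TPM there, 40.5 to 130 TPM in the other 4 intra-CNS tumors and 40.2 to 138 TPM in the 11 extra-CNS tumors. In bulk tissue more cells of a type and more RNA per cell cannot be told apart. The fold of 29048 over the highest other intra-CNS tumor, computed after adding 0.1 TPM, was at least 4 for 9 of 9 genes, where 3.86% of the 16462 genes reaching 1 TPM in an intra-CNS tumor passed that mark. The rule used this contrast, so nothing is read from the count. The least of the 9 folds, 7.86 for Cnp, was the nearest to that mark, and 5 of the folds lay above 39.

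**Figure D1:**
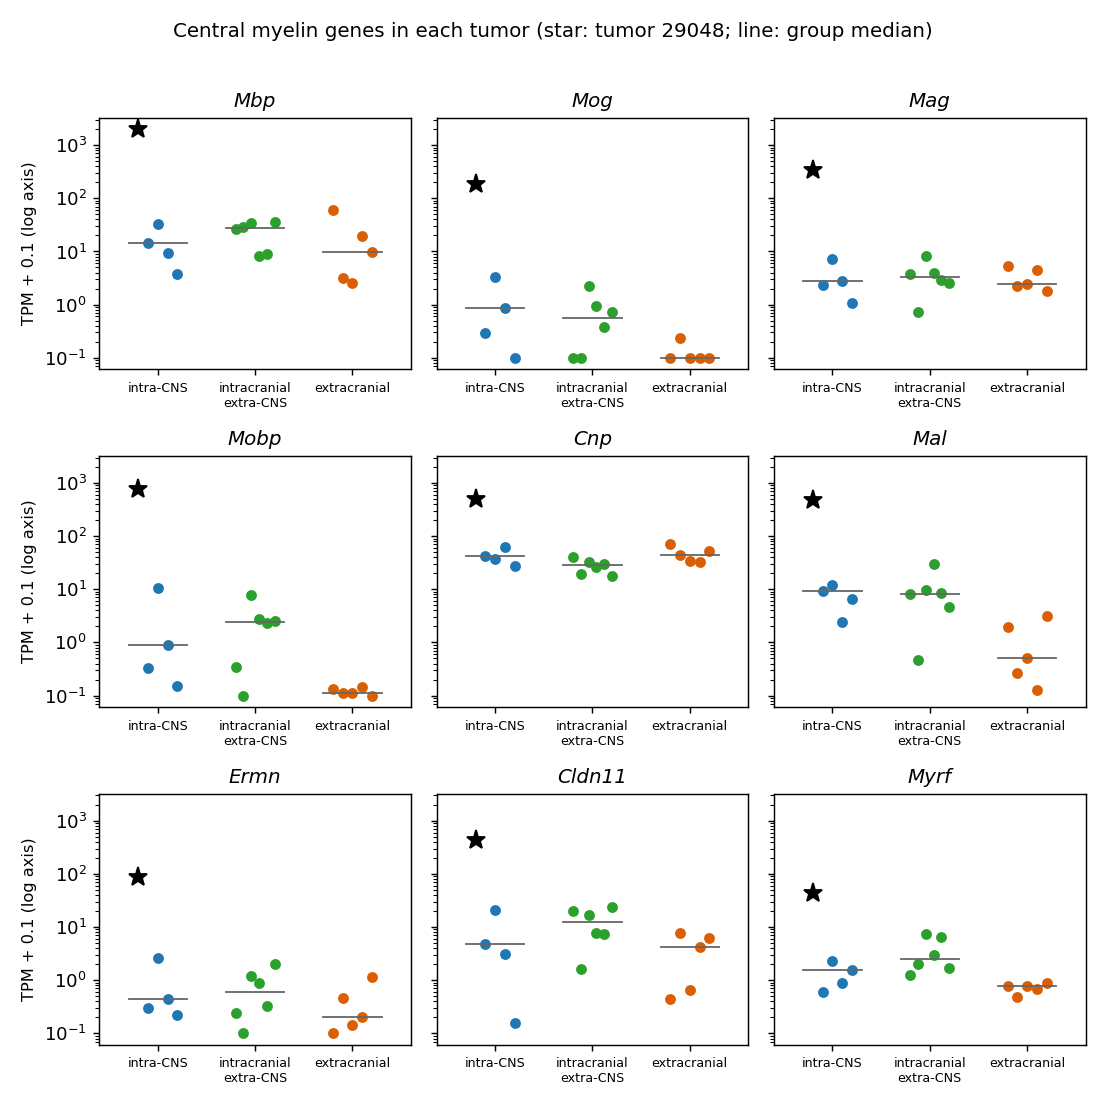
Level of each central myelin gene in each of the 16 tumors, as TPM plus 0.1 on a log axis, by tumor location. Each point is 1 tumor, the star is 29048 and lines are group medians. The star lies above every other point in all 9 panels, and Mobp and Mog lie near the floor of the axis in the extracranial tumors.

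Among the structural proteins of the sheath, Mbp, which holds the inner faces of the membrane together, was at 1971 TPM in 29048. It was at 14.1 TPM in 38594A, 33.4 in 29050A, 9.20 in R26P98 and 3.74 in R26P87. In the extra-CNS tumors it ran from 8.02 to 35.5 TPM in the intracranial group (median 27.4) and from 2.42 to 59.7 TPM in the extracranial group (median 9.56). The levels outside the brain covered the whole range of the 4 other intra-CNS tumors, and the second highest Mbp of all was in the extracranial tumor 43825B.

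Mobp, an oligodendrocyte protein of the compact sheath, was at 762 TPM in 29048. The other intra-CNS tumors held 0.236, 10.6, 0.786 and 0.0512 TPM (38594A, 29050A, R26P98 and R26P87). In the intracranial extra-CNS tumors it was 0 TPM in 43992A, 0.243 in 43989C and 2.23 to 7.74 in the other 4, whereas no extracranial tumor exceeded 0.0456 TPM, and 4 of these 5 were at or under 3 counts. Mobp in 5 of the 6 intracranial extra-CNS tumors thus lay above every extracranial tumor. How many of all genes separate these groups in this way was not counted.

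Mog, the glycoprotein on the outer surface of the central sheath, was at 183 TPM in 29048, from 3679 counts. It was at 0.189 TPM in 38594A, 3.24 in 29050A, 0.779 in R26P98 and 0 in R26P87. Outside the brain it was at 0 counts in 2 of 6 intracranial and in 4 of 5 extracranial tumors, with 2.16 TPM as the highest value, in 29941C. An extracranial value of 0 allows up to 3 counts, and the single extracranial tumor with reads, 43987A, held 5 counts (0.131 TPM).

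Mag, the adhesion protein of the innermost wrap that faces the axon, was at 342 TPM in 29048 and at 2.28, 7.19, 2.63 and 0.973 TPM in 38594A, 29050A, R26P98 and R26P87. It was at 0.612 to 8.29 TPM in the intracranial extra-CNS tumors (median 3.23) and at 1.74 to 5.29 TPM in the extracranial tumors. Unlike Mog and Mobp, Mag was counted in every tumor, at similar levels in all 3 locations once 29048 is set aside.

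Cnp, an enzyme of the myelin cytoplasmic channels that other cells also make, was the member with the smallest contrast. It was at 491 TPM in 29048 and at 42.2, 37.7, 62.4 and 27.6 TPM in 38594A, 29050A, R26P98 and R26P87. It was at 18.0 to 40.6 TPM in the intracranial extra-CNS tumors and at 31.9 to 69.8 TPM in the extracranial tumors. Outside 29048, Cnp was the most abundant of the 9 genes in 11 of 15 tumors, and Cnp with Mbp made up 41.8 to 94.1% of the members' sum in the extra-CNS tumors. The lowest of these shares was in 29225D, where Mal was the most abundant member.

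Mal, a proteolipid of myelin that also sorts apical membrane in epithelia, was at 477 TPM in 29048 and at 9.25, 11.9, 2.35 and 6.45 TPM in 38594A, 29050A, R26P98 and R26P87. In the intracranial extra-CNS tumors it was between 0.370 and 29.4 TPM (median 8.10), and in the extracranial tumors between 0.0266 and 2.99 TPM (median 0.420). Cldn11, the claudin that makes the tight junctions of central myelin and of the testis, was at 430 TPM in 29048 and at 4.78, 21.2, 2.96 and 0.0591 TPM in 38594A, 29050A, R26P98 and R26P87. It was between 1.53 and 23.3 TPM in the intracranial extra-CNS tumors and between 0.336 and 7.48 TPM in the extracranial tumors. Both genes overlapped among the 3 locations without 29048.

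Ermn, an actin-binding protein of late-stage oligodendrocytes, was at 87.2 TPM in 29048 and at 0.21, 2.5, 0.346 and 0.126 TPM in 38594A, 29050A, R26P98 and R26P87. Its highest value outside the brain was 1.94 TPM, in R26P115. Myrf, the regulator, was at 42.9 TPM in 29048 and at 0.504, 2.15, 0.772 and 1.46 TPM in 38594A, 29050A, R26P98 and R26P87. It was at 1.13 to 7.28 TPM in the intracranial extra-CNS tumors and at 0.384 to 0.800 TPM in the extracranial tumors.

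Among the other 4 intra-CNS tumors, 29050A was highest for 8 of the 9 genes and R26P98 for Cnp. The mean log2(TPM + 1) of the 9 genes was 8.33 in 29048, 3.41 in 29050A and between 1.40 and 2.04 in the other 3. Across the extra-CNS tumors it was 1.47 to 3.32 in the intracranial group, with 29941C highest, and 1.18 to 1.94 in the extracranial group. By this mean 29050A was next to 29048, closely followed by 29941C, whereas by the summed level the extracranial tumor 43825B (138 TPM) came before 29050A (130 TPM). Gene by gene, 29050A was second of all tumors for 3 of the 9.

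The position of 29048 was not limited to the selected genes. Of a list of 18 other genes of mature oligodendrocytes, 18 were highest in 29048 among the intra-CNS tumors and 16 among all tumors, where 30.7% of the 16462 genes reaching 1 TPM in an intra-CNS tumor and 14.8% of the 18189 genes reaching it in any tumor were highest in 29048. The list had a sum of 1506 TPM in 29048 against 227 to 305 TPM in the other 4. Opalin, a membrane protein of oligodendrocytes, was at 65.7 TPM there and at most 1.18 TPM elsewhere. Of 11 genes of oligodendrocyte progenitors and committed cells, 10 were highest in 29048 among the intra-CNS tumors, with Pdgfra, the growth factor receptor of progenitors, as the exception. Genes of other brain cells moved with them. The neuron list summed to 4877 TPM in 29048 and to 130 to 1373 TPM in the other intra-CNS tumors, with 9 of 10 genes highest in 29048 (not Gad2) and Snap25, a synaptic protein, at 2049 TPM. The astrocyte list summed to 2893 TPM against 177 to 979 TPM, with 6 of 7 genes highest in 29048 (not Gja1) and Aldoc at 837 TPM. The microglia list summed to 171 TPM against 82.5 to 126 TPM, with 5 of 5 genes highest in 29048 among the intra-CNS tumors and Cx3cr1, the fractalkine receptor, at 64.3 TPM. The list of arachnoid and meningeal fibroblasts summed to 1518 TPM against 18.9 to 1033 TPM, with 2 of 5 genes highest in 29048, and Ptgds, an enzyme also made by oligodendrocytes, gave 1497 TPM of it. The highest sums of this list among the other tumors were 2556 TPM in R26P115 and 1033 TPM in 29050A. None of the 4 T cell genes was highest in 29048. The part of these other cell types, and of the higher Smarcb1, in the level of the myelin genes was not tested.

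**Figure D2:**
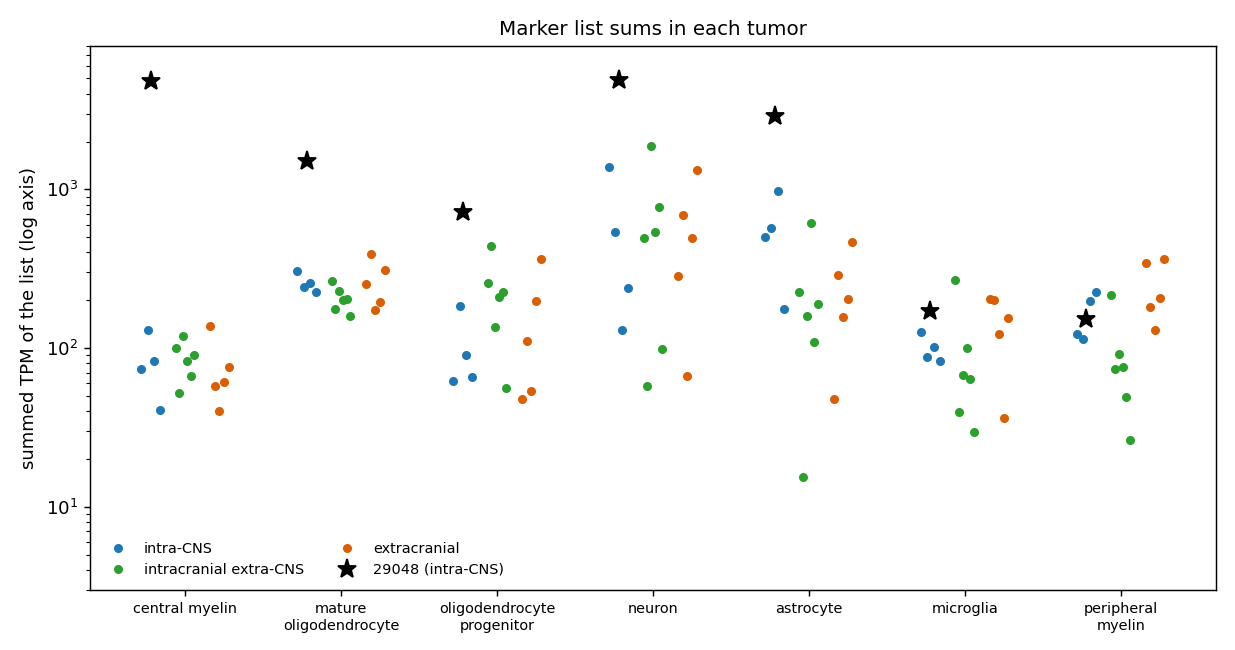
Summed TPM of 7 gene lists in each of the 16 tumors on a log axis, by tumor location, with 29048 as a star. The star stands highest for central myelin, mature oligodendrocyte, oligodendrocyte progenitor, neuron and astrocyte genes, and lies among the other tumors for microglia and peripheral myelin genes.

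The genes whose levels ran most closely with the members' mean log2(TPM + 1), among the 15795 genes outside the list that reached 5 TPM in a tumor, were Gjc3 (Pearson r 0.975), Gjb1 (0.973), Opalin (0.972), Etnppl (0.969), Cyp4f14 (0.962) and 1700047M11Rik (0.958) over 16 tumors. These values rest largely on the distance of 29048 from the rest. Over the 15 tumors without it, the first 6 were Opalin (0.855), S100b (0.854), Gjc3 (0.832), Bcas1 (0.821), Gjb1 (0.804) and Gpr182 (0.769). Of these 6, Opalin, Gjc3, Gjb1 and Gpr182 reached 5 TPM in 29048 alone, so that they entered through that tumor. Among the 15615 genes that reached 5 TPM in 1 of the 15 tumors, a filter added after the data were seen, S100b and Bcas1 came first, and none of the first 6 was in the list over all 16 tumors. Gjc3 and Gjb1 are connexins, and Bcas1 is a protein of newly myelinating oligodendrocytes. All of these genes share their libraries with the members, and the correlations are descriptions.

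The intra-CNS tumors were then compared with the extra-CNS tumors, which asks whether the myelin genes follow tumor location. Counts were fitted with edgeR's quasi-likelihood test, and a gene was past the threshold at an adjusted p under 0.05 (Benjamini-Hochberg over all 21854 genes) and an absolute log2 fold change above 1. With all 5 intra-CNS tumors, 6 of the 9 genes were past the threshold, all higher, where 12.9% of all genes were past it as higher and 13.1% as lower. This fit contains the tumor on which the genes were selected, and its folds are given as descriptions. The log2 fold changes were 6.25 ± 1.85 (SE) for Mobp, 6.08 ± 1.66 for Mog, 4.53 ± 1.35 for Ermn, 3.86 ± 0.977 for Mag, 3.67 ± 1.10 for Mbp and 3.60 ± 1.23 for Mal. Cldn11 (2.84 ± 1.16), Myrf (1.60 ± 0.919) and Cnp (1.34 ± 0.536) were not past it. The median of the 9 was 3.67, against -0.15 for all genes.

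Without 29048, none of the 9 genes was past the threshold in the comparison of 4 intra-CNS with 11 extra-CNS tumors, and none had an unadjusted p under 0.05 in edgeR. In that fit 11% of the 21777 genes tested were past the threshold as higher and 11.7% as lower. The log2 fold changes ran from -1.35 for Myrf (SE 0.816, edgeR adjusted p = 0.218) to 1.0 for Mog (SE 1.48, adjusted p = 0.62). Mobp, with the largest fold in the full comparison, was at 0.57 (SE 1.69, edgeR adjusted p = 0.814), and Mbp at -1.06 (SE 0.789, adjusted p = 0.32). The median of the 9 was -0.29, against -0.21 for all genes. The standard errors for Mog, Mobp, Mal, Ermn and Cldn11, which are approximate, all exceed 1 on the log2 scale. Differences of several-fold in either direction could therefore have gone undetected in these 15 tumors.

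**Figure D3:**
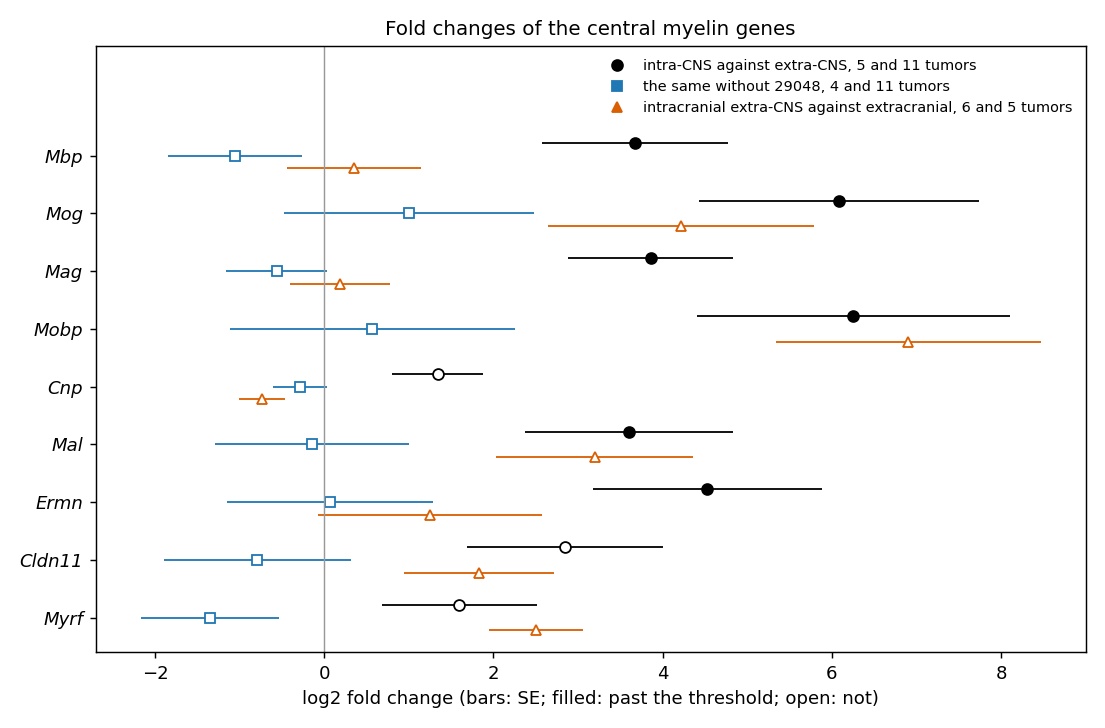
Log2 fold changes of the 9 central myelin genes from edgeR, with bars for the SE. Filled symbols are past the threshold and open symbols are not. The black circles of the full comparison of intra-CNS with extra-CNS tumors move to the blue squares around 0 when 29048 is left out, and the orange triangles compare the intracranial extra-CNS with the extracranial tumors.

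Other genes of the lineage were read in the same comparison. Of the 11 progenitor and committed genes, 6 were higher and 1 lower with 29048 and 4 were higher and 1 lower without it, where 11% of all genes were higher and 11.7% lower. Of 10 neuron genes, 3 (Rbfox3, Gad2 and Camk2a) were past the threshold as higher without 29048 and 4 with it. Of 7 astrocyte genes it was 1 without 29048 (Slc1a2, a glutamate transporter), which is close to the share among all genes, and 3 with it. These genes were named after their values were seen, and the part of neurons and astrocytes in the values of the lineage genes was not tested. The lineage genes higher without 29048 were Nkx2-2 (4.05 ± 0.884 SE, edgeR adjusted p = 0.0033), Olig2 (4.11 ± 1.08, adjusted p = 0.0104), Gpr17 (3.45 ± 1.18, adjusted p = 0.0385) and Olig1 (3.49 ± 1.26, adjusted p = 0.0499), of which Olig1, Olig2 and Nkx2-2 are transcription factors of the lineage and Gpr17 is a receptor of committed precursors. Olig2 was at 7.09 to 10.3 TPM in the 4 tumors and at 1.18 TPM or less in every extra-CNS tumor. Enpp6, an enzyme of newly formed oligodendrocytes, was lower without 29048 (-3.38 ± 1.02, edgeR adjusted p = 0.0218). The lower gene with 29048 was Pdgfra (-2.50 ± 0.773, edgeR adjusted p = 0.0205), which was at -2.37 ± 0.864 (adjusted p = 0.0516) without it. Cspg4, another progenitor gene, named after its values were seen, was at -3.04 ± 1.25 without 29048 (edgeR adjusted p = 0.0802). Of the 18 mature genes, 9 were higher and 2 lower with 29048, and 2 were higher and 2 lower without it, which is close to those shares among all genes. The higher pair was Nkx6-2 (4.45 ± 1.20, edgeR adjusted p = 0.0118), a transcription factor also used in neural progenitors, and Tppp (3.79 ± 0.706, adjusted p = 0.00114), a microtubule-binding protein also made by neurons. The lower pair was Adamts4 (-3.55 ± 1.03, edgeR adjusted p = 0.0174), a secreted protease, and Anln (-1.67 ± 0.468, adjusted p = 0.0147), which is also used in cell division.

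The intracranial extra-CNS tumors were compared with the extracranial tumors in a fit on these 11 tumors, which leaves 29048 out. None of the 9 genes was past the threshold, where 0.0047% of the 21261 genes were past it as higher. This was 1 gene, Ttc39aos1, named after its value was seen. At an unadjusted p under 0.05, 4 members had a positive and 1 a negative fold change in edgeR, against 1442 and 1164 of all genes. The log2 fold change was 6.90 ± 1.56 for Mobp (SE, edgeR adjusted p = 0.345) and 4.22 ± 1.57 for Mog (edgeR adjusted p = 0.363). Both are fitted folds against a group at or near 0 counts, which depend on the prior count and are no bound, and that of Mog was 7.26 without 43987A, the only extracranial tumor with Mog reads. Myrf was at 2.5 ± 0.557 (edgeR adjusted p = 0.345), Mal at 3.20 ± 1.16 (edgeR adjusted p = 0.355) and Cnp at -0.74 ± 0.273 (edgeR adjusted p = 0.36). Mbp and Mag, which Schwann cells also use, were at 0.35 ± 0.792 and 0.18 ± 0.591 (edgeR adjusted p = 0.886 and 0.926), and the value of Mbp was 1.49 without 43825B. DESeq2 put Mobp and Myrf past the same threshold, with 490 genes in all. Without its outlier filter, an alternative added after the data were seen, it also put Mal past it. The call for these 3 members therefore depends on the tool. Over all alternatives the adjusted p ran from 2.353e-06 to 0.827 for Mobp, from 4.434e-05 to 0.827 for Myrf and from 0.0314 to 0.827 for Mal.

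Other brain genes were also read in the intracranial group. Opalin was at 0.256 to 0.559 TPM in all 6 intracranial extra-CNS tumors, 3 of them at or under 3 counts, and at 0 counts in all 5 extracranial tumors. Of the 7 astrocyte genes, 5 had a higher median in the intracranial and 2 (Gja1 and Aldh1l1) in the extracranial tumors. Gja1, a connexin many cells make and the highest of the list in both groups, was at 9.20 to 357 TPM in the former and at 27.7 to 445 TPM in the latter. A contrast was seen for Gfap and Aqp4, named after their values were seen. Gfap, the astrocyte filament protein, was at 0.674 to 163 TPM in the former and at most 0.109 TPM in the latter. Aqp4, the astrocyte water channel, was at 0.019 to 27.3 TPM and at most 0.0123 TPM. The whole astrocyte list overlapped, with sums of 15.3 to 618 TPM against 47.4 to 468 TPM, and so did the neuron list, with 57.4 to 1882 TPM against 67.1 to 1314 TPM. Of the 10 neuron genes, 8 had a higher median in the intracranial and 2 (Camk2a and Thy1) in the extracranial tumors. The part of brain tissue in the levels of Mobp and Mog in the intracranial group was not tested, and 43992A had no counts of either.

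The peripheral myelin genes gave a different picture from the central ones in 29048. None of the 7 genes Pmp22, Pmp2, Prx, Egr2, Ncmap, Gldn and Drp2 was highest in that tumor. Pmp2, the fatty acid-binding protein of peripheral myelin, reached 0.521 TPM at most, in R26P123, and was at 0 counts in 29048.

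**Figure D4:**
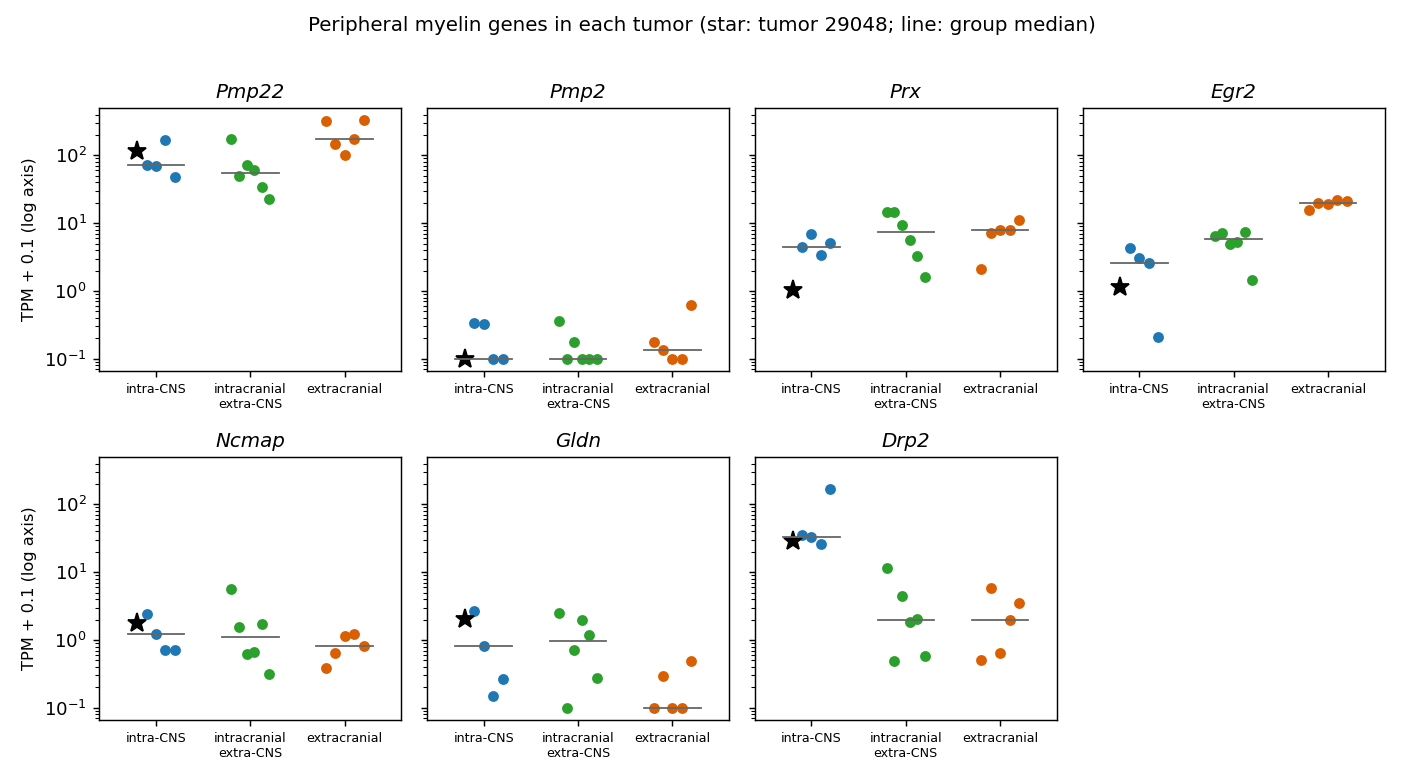
Level of each of 7 peripheral myelin genes in each of the 16 tumors, as TPM plus 0.1 on a log axis, by tumor location. Each point is 1 tumor, the star is 29048 and lines are group medians. The star is highest in no panel, and Drp2 and Egr2 differ by location.

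In the comparison of intra-CNS with extra-CNS tumors, Egr2 was lower and Drp2 higher, and the other 5 peripheral genes were not past the threshold. A single gene of 7 in each direction is close to the shares of 12.9% and 13.1% among all genes, so that the calls describe these genes and not the list. Egr2, the transcription factor that drives Schwann cell myelination and is also an early response gene of many cells, was at 1.03 TPM in 29048 and at 4.21, 2.96, 2.47 and 0.112 TPM in 38594A, 29050A, R26P98 and R26P87. It was at 1.35 to 7.36 TPM in the intracranial extra-CNS tumors and at 15.4 to 22.2 TPM in the extracranial tumors. Its log2 fold change was -2.96 ± 0.761 (SE, edgeR adjusted p = 0.00715) with 29048 and -2.78 ± 0.836 (adjusted p = 0.0212) without it. Egr2 was not past the threshold with tumors induced at E6 alone (-2.98, edgeR adjusted p = 0.074). Between the extra-CNS groups it was -1.84 ± 0.365 for intracranial against extracranial (edgeR adjusted p = 0.345). DESeq2 put Egr2 past the threshold there (-1.82 ± 0.355, adjusted p = 0.000113), so that this call too depends on the tool, and over all alternatives the adjusted p ran from 3.223e-05 to 0.569. Drp2, a dystrophin-related protein that anchors periaxin (Prx) in Schwann cells, is also made in the brain. It was at 25.9 to 171 TPM in the intra-CNS tumors, with 29.2 TPM in 29048, and at 0.393 to 11.3 TPM in the extra-CNS tumors. Its log2 fold change was 3.81 ± 0.728 (edgeR adjusted p = 0.000893) with 29048 and 3.98 ± 0.768 (adjusted p = 0.00146) without it.

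Pmp22, the growth-arrest protein of peripheral myelin that many other cells make, was at 22.4 to 176 TPM in the intracranial extra-CNS tumors, 101 to 329 TPM in the extracranial tumors and 47.7 to 166 TPM in the intra-CNS tumors. It made up 67.9 to 94.7% of the summed level of the 7 peripheral genes in the extra-CNS tumors. Prx ran from 1.52 to 14.6 TPM in the extra-CNS tumors and was at 0.937 TPM in 29048. Ncmap, a membrane protein of non-compact myelin, was highest in 43989C, at 5.47 TPM. Gldn, a node of Ranvier protein, was at 2.62 TPM or less in every tumor.

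In the extra-CNS tumors the summed peripheral level exceeded the summed central level in 7 of 11 tumors, in 5 of 5 extracranial and 2 of 6 intracranial ones. The log2 ratio of the sums had a median of 1.11 and ran from -1.79 in R26P115 to 2.27 in R26P123. It was 1.31 to 2.27 in the extracranial group and -1.79 to 1.11 in the intracranial group, with 43989C highest in the latter. Without the broadly expressed Cnp, Cldn11 and Pmp22, the median was -0.40, the range was -3.71 to 2.42 and the peripheral sum was the higher in 5 of 11 tumors. Both groups then overlapped, at -1.89 to 2.42 in the extracranial group (43825B lowest) and -3.71 to 0.02 in the intracranial group. The direction of the median and the separation of the groups therefore depended on these 3 genes. The list of 7 Schwann lineage genes (Sox10, Cdh19, Foxd3, Erbb3, Ngfr, S100b and Pou3f1), several of them shared with other neural cells, summed to 2.04 to 26.5 TPM in the extracranial and to 13.3 to 42.9 TPM in the intracranial tumors. Its sum was 351 TPM in 29048, of which S100b, also made by astrocytes and oligodendrocytes, was 229 TPM, and 38.8 to 158 TPM in the other 4 intra-CNS tumors. The groups outside the brain overlapped in this sum, which reached lower values in the extracranial tumors. The part of Schwann cells in the ratio of peripheral to central sums was not tested. Markers of other cells also had higher medians in the extracranial than in the intracranial tumors, with 5 of 5 skeletal muscle genes (sums of 12.8 to 605 TPM against 3.30 to 80.1 TPM), 4 of 4 T cell genes (2.53 to 24.5 TPM against 0.555 to 13.0 TPM) and 4 of 5 microglia genes (36.4 to 205 TPM against 29.4 to 270 TPM). The highest single values were 285 TPM for the muscle actin Acta1 and 9.84 TPM for the CD3 chain Cd3g. All 3 sums overlapped between the groups, and the part of these cells in the ratio was not tested. In 29048 the log2 ratio was -4.97, and in the other 4 intra-CNS tumors it was -0.19 to 2.47.

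**Figure D5:**
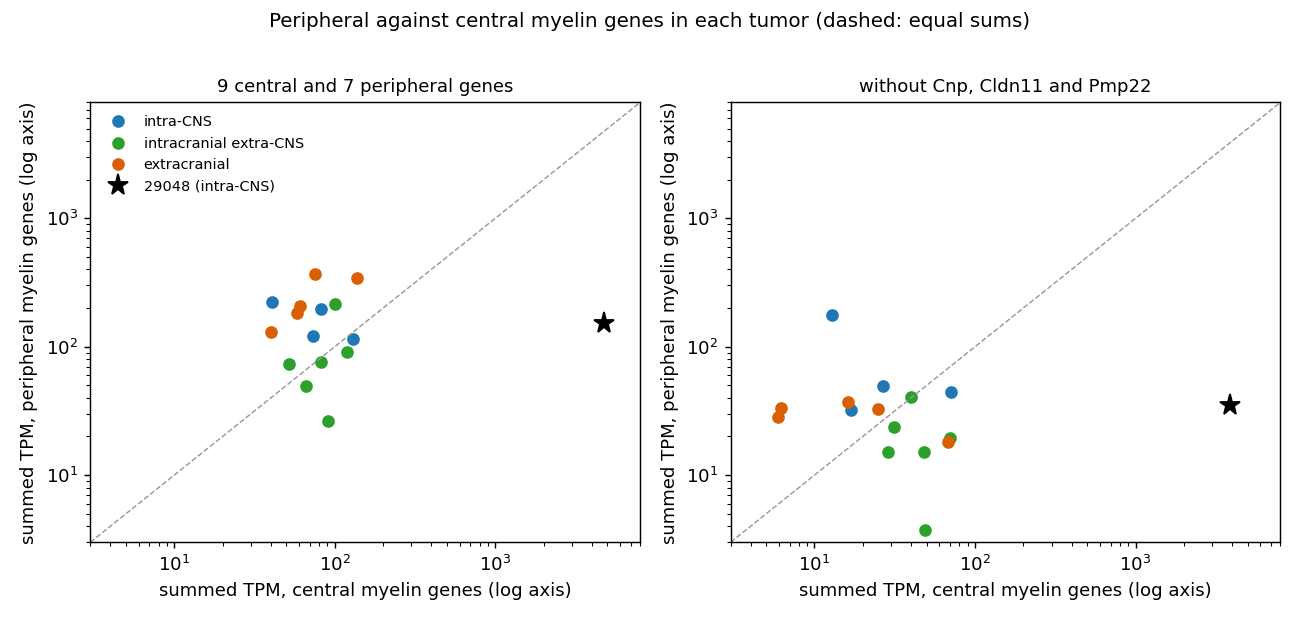
Summed TPM of the peripheral against the central myelin genes in each of the 16 tumors, on log axes, for all genes of both lists on the left and without Cnp, Cldn11 and Pmp22 on the right. The dashed line marks equal sums. The star (29048) lies far to the right of the line, and the extracranial tumors lie above it on the left, with 4 of 5 above it on the right.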

How the data were processed

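Polyadenylated RNA of 16 mouse tumors was read as paired ends with strand information. Per the labels, the authors aligned to mm10 with STAR 2.5.3a and deposited raw counts per gene, without normalization, and TPM values for the same tumors. The gene annotation is not given in the sources used here. The TPM column of 29048 was listed in the file under a name that reads as a number and held TPM as the others did. The deposited tables give no batch. Groups followed the location in the labels, and 43990A, extracranial there and intracranial in a table of the study, was analysed as extracranial. Total counts ranged from 17889968 to 110177889, and 3 counts served as the floor.

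Genes with a count in any tumor of a comparison were tested with edgeR 4.0.16 in R 4.3.3 (TMM scaling, quasi-likelihood F test), and p-values were adjusted by Benjamini-Hochberg across every gene tested. The SE of an edgeR fold change was taken as the absolute log2 fold change divided by the square root of the F statistic, so it is approximate. In simulated data for the intra-CNS comparison of 21854 genes, 69% of 200 genes changed 8-fold were recovered, with 3 false calls, and for the other comparison of 21261 genes 56%, with 6. The changed genes were drawn from those above a minimum mean count, and all tumors of a group shifted alike. These rates therefore do not describe genes near the floor or a difference carried by a single tumor. Alternatives were DESeq2 1.42.0, limma 3.58.1 fitted to log2(TPM + 1), size factors from DESeq2, a filter on low counts, no fold threshold, tumors induced at E6 alone, another site for 43990A and the omission of single tumors. DESeq2 without its outlier filter was added after the data were seen. Python 3.11.15, numpy 2.4.6, pandas 2.3.3 and matplotlib 3.10.9 were used. The members and gene lists were chosen with earlier results of these data known. Named were the 9 members, the peripheral genes, up to 4 lineage genes per direction and list in a comparison, the 6 genes most like the members in level, Smarcb1 and the highest gene of each further list whose values are given. Other genes were named as exceptions in a list or, where so stated, after their values were seen. Each tumor came from a different mouse, so the spread includes that between animals. The peripheral myelin and microglia lists each leave out 1 gene that is not reported here, which the sums do not hold. Gene positions came from GENCODE release M21 for GRCm38 and promoters from RefSeq.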

Additional observations from a re-analysis of the deposited data

Results flagged for a closer look

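Within each location, the highest or lowest tumor was compared with the others by the ratio of its gap to the nearest tumor to the whole range, on the log2(TPM + 1) scale. The central genes were not tested in this way among the intra-CNS tumors, on which they were selected. Of 39 gene and location pairs (7 peripheral genes in 3 locations and 9 central genes in the 2 outside the brain), 6 in which most of the tumors were at or under 3 counts were left out, since values at or near 0 set the ratio there, a choice made after the values were seen. Of the other 33 pairs, 3 held a tumor beyond Dixon's critical value, and chance gives about 1 in 20.

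All 3 were peripheral genes. Prx was low in 43825B (ratio 0.725, 2.03 TPM), Egr2 was low in R26P115 (ratio 0.706, 1.35 TPM) and Drp2 was high in R26P87 (ratio 0.83, 171 TPM).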

How the results depend on the processing

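The count of 6 of 9 members past the threshold between intra-CNS and extra-CNS tumors was 0 with limma on log2(TPM + 1), where the 6 were at 1.12 to 2.13. It was 0 with tumors induced at E6 alone (5 against 2), where all genes past it fell from 5689 to 3533 and the log2 fold changes were 2.92 for Mbp, 3.50 for Mag, 3.72 for Mal, 6.48 for Mobp, 6.63 for Ermn and 7.33 for Mog. DESeq2 gave no p for any of the 9, since its outlier filter removed them, and 8 were past the threshold without that filter, an alternative chosen after the data were seen. Leaving out single tumors gave 0 to 8 members, the 0 without 29048, where 2406 genes were higher and 2554 lower. With limma, 4082 genes were higher and 1324 lower, against 2829 and 2860 in edgeR. Without 1 tumor in turn, log2 fold changes ran from -1.06 to 3.99 (Mbp), -0.56 to 4.18 (Mag), -0.29 to 1.60 (Cnp), -0.14 to 4.27 (Mal), -0.79 to 3.17 (Cldn11) and -1.35 to 1.96 (Myrf), each negative only without 29048. Without 43825B, Mal was no longer past the threshold and Cnp was. Cnp was also past it without 38594A, 29050A or R26P87, and Cldn11 without R26P87 or R26P115.

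Between intracranial extra-CNS and extracranial tumors, DESeq2 put 2 members and 490 genes past the threshold, or 3 and 1121 without its outlier filter, against 0 and 1 in edgeR. Leaving out single tumors gave 0 to 3 genes, and log2 fold changes of -0.24 to 0.46 for Mag, 0.017 to 1.49 for Mbp (the highest without 43825B), 3.34 to 7.26 for Mog (the highest without 43987A) and 0.54 to 2.44 for Ermn (the lowest without R26P115, the highest without R26P123). With 43990A as intracranial, Mbp was at -0.14 and Mag at -0.0063. Mog gave no value under the filter on low counts. The median log2 ratio of peripheral to central sums was -0.40 without Cnp, Cldn11 and Pmp22. Where no value above shows it, the cause was not tested. No paired analysis was possible because no 2 tumors share a mouse, and replicate numbers only name tumors. Genes at or under 3 counts, such as Mobp and Mog in most extracranial tumors, are limited by depth.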
